A study of Mus musculus with 12 samples.

Results

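The comparison described here set the T cell receptor repertoire of spleen CD8+ T cells from tumor-bearing mice given IL-10-Fc, interleukin-10 fused to an antibody Fc part, beside that of mice given control IgG. Its members were the clonotypes listed for these 2 libraries, 133156 in control IgG and 163759 in IL-10-Fc, of 1502315 clonotypes listed over the 12 libraries of the series. A clonotype is 1 combination of V segment, J segment and CDR3 nucleotide sequence. Wild-type C57BL/6J mice carried MTCQ1-2 oral cancer cells implanted in the cheek. They received the equivalent of 30 mg/kg of each agent in 3 doses with 3 days between doses, and CD8+ cells were then isolated with magnetic beads from tumor, spleen and tumor-draining lymph node (tdLN). Both groups share the tumor model, the dosing scheme and the bead isolation, and the remaining spleen libraries came from mice given an anti-CSF1R antibody (αCSF1R) or BF10, a fusion of anti-CSF1R and IL-10. Per the design text each library is a mix of 3 samples of 1 treatment, taken here as 3 mice, so each group is 1 pooled library. No spread between animals can be given, no test was run, and the intervals below are 95% intervals that cover counting error of unique molecular identifiers (UMIs) only.

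A T cell receptor is built by joining a V segment to a J segment (with a D segment in β and δ chains), and the CDR3 is the loop encoded across the joint. Most CD8+ T cells carry an αβ receptor that differs from cell to cell. Innate-like T cells use nearly the same receptor in many cells and in many animals. Invariant natural killer T (NKT) cells in mice join Trav11 to Traj18 and recognize lipids on CD1d. Mucosal-associated invariant T (MAIT) cells join Trav1 to Traj33 and recognize vitamin B metabolites on MR1, and γδ T cells carry γ and δ chains in place of α and β. Mouse invariant NKT and γδ T cells mostly lack CD8, which this assay does not measure, so the CD8+ label could be checked only by the chains.

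TRAC and TRBC, the constant genes of α and β chains, made up nearly all UMIs in both libraries. In control IgG, 115039 UMIs were TRAC and 153435 were TRBC. In IL-10-Fc, 121278 were TRAC and 166869 were TRBC. The share of TRAC was 42.0% of all UMIs in control IgG and 41.8% in IL-10-Fc, and that of TRBC was 56.0% and 57.5%. Sequencing was shallower per molecule in IL-10-Fc, where 36.6% of UMIs had at least 7 reads against 40.9% in control IgG. The αCSF1R library had 57.3% and the BF10 library 38.8%.

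Among the V-J pairs of α and β chains that were compared, the largest fold was that of the invariant NKT-type α chain. Its leading CDR3 amino acid sequence, 15 residues long, was listed in all 12 libraries and was encoded by 11 nucleotide sequences in the 2 spleen libraries. The 4 with the most UMIs are shown because they carry the difference. They vary in the last base of the glycine codon at the joint, which is in capitals.
NKT-type TRAC, codon ending in C: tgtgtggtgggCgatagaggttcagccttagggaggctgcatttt
NKT-type TRAC, codon ending in G: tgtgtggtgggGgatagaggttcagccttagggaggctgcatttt
NKT-type TRAC, codon ending in A: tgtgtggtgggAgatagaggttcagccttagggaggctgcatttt
NKT-type TRAC, codon ending in T: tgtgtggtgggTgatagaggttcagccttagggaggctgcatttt
The first of these had 252 UMIs in control IgG and 20 in IL-10-Fc, with 253 in αCSF1R and 152 in BF10. The second had 137 and 14 UMIs, the third 107 and 6, and the fourth 62 and 4 in control IgG and IL-10-Fc. All 4 were lower in IL-10-Fc than in each of the other spleen libraries. Against the GRCm38 segments, the C and A forms were covered by Trav11 and Traj18 with 0 bases left over, and the G and T forms with 1. Trav11 lies at chr14:53519303-53519859 and Traj18 at chr14:54200777-54200842, both on the plus strand (GRCm38, the build that equals mm10).

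Trav11-Traj18 chains as a whole held 656 UMIs in control IgG, 62 in IL-10-Fc, 644 in αCSF1R and 470 in BF10. These were 0.570% of TRAC UMIs in control IgG (0.527% to 0.616%), 0.0511% in IL-10-Fc (0.0392% to 0.0655%), 0.586% in αCSF1R and 0.396% in BF10. The share in IL-10-Fc was 11.2-fold lower than in control IgG (interval 8.59 to 14.7), and the intervals of the 2 libraries did not overlap. The number of Trav11-Traj18 clonotypes was 43 in control IgG and 16 in IL-10-Fc, with 15.3 and 3.88 UMIs for each clonotype. In bulk RNA, fewer cells of a type and less receptor RNA per cell cannot be told apart. With 1 library a side, different recovery of CD8-negative cells on the beads and an effect of treatment cannot be told apart either.

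The segments outside the pair differed less. Trav11 joined to any other Traj had 250 UMIs in control IgG and 274 in IL-10-Fc, a fold of 1.04 (0.873 to 1.24). Traj18 joined to any other Trav had 1854 and 1855 UMIs, a fold of 0.949 (0.889 to 1.01). Within the pair, the leading CDR3 was 13.8-fold lower in IL-10-Fc (10.2 to 19.2), while all other Trav11-Traj18 sequences together were 4.63-fold lower (2.75 to 8.21). The leading CDR3 made up 87.96% of the pair's UMIs in control IgG and 71.0% in IL-10-Fc, and 85.4% and 86.0% in αCSF1R and BF10.

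Mouse NKT β chains mostly use Trbv13-2, Trbv29 or Trbv1, genes that conventional T cells use as well. Trbv13-2 held 5.75% of TRBC UMIs in control IgG and 5.17% in IL-10-Fc, a fold of 0.899 (0.873 to 0.926). It held 5.11% in αCSF1R and 6.23% in BF10, so IL-10-Fc was not the lowest. Trbv1 held 6.12% and 5.46%, a fold of 0.892 (0.866 to 0.918), with 6.15% in αCSF1R and 6.1% in BF10. Trbv29 was higher in IL-10-Fc, with a fold of 1.08 (1.06 to 1.10). The pairing of α with β chains is not recorded in bulk libraries, so the part of NKT cells in these β shares was not tested.

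MAIT-type chains were rare in both libraries. Trav1-Traj33 had 23 UMIs in control IgG and 13 in IL-10-Fc, with 15 in αCSF1R and 8 in BF10. The fold was 0.536 with an interval of 0.249 to 1.10, which includes 1. With clonotypes of at least 2 UMIs it was 0.331 (0.119 to 0.801), and with each clonotype counted once 0.949 (0.301 to 3.08). The most widely listed sequence of this pair, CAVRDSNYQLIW, found in 9 of 12 libraries, is shown as the MAIT reference.
MAIT-type TRAC: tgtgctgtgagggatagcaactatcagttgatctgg
It had 1 UMI in control IgG and 4 in IL-10-Fc, and Trav1 and Traj33 covered it with 0 bases left over. Trav1 joined to other Traj segments had 374 UMIs in control IgG and 461 in IL-10-Fc, a fold of 1.17 (1.02 to 1.34).

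**Figure D1:**
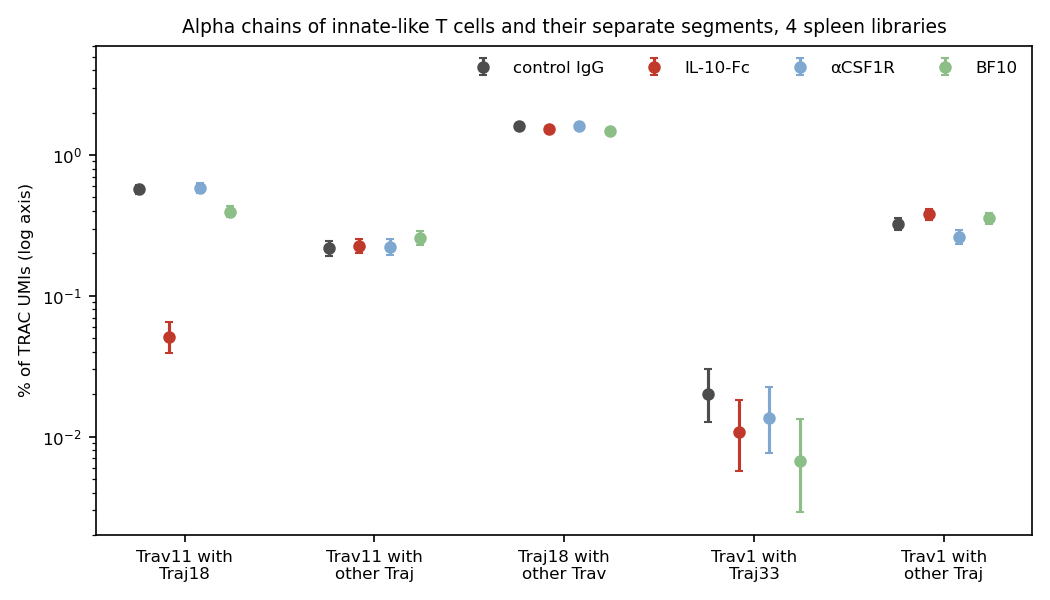
Share of TRAC UMIs, in percent on a log axis, of Trav11-Traj18 and Trav1-Traj33 chains and of each V segment or J segment without its partner, in the 4 spleen libraries. Points are single pooled libraries and bars are exact 95% binomial intervals. The IL-10-Fc point for Trav11 with Traj18, at 0.0511%, lies below the other 3 libraries, while Trav11 with other Traj segments lies between 0.217% and 0.259% in all 4.

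γδ chains were also fewer in the IL-10-Fc library. TRGC, the γ constant gene, had 2959 UMIs in control IgG, 737 in IL-10-Fc, 2692 in αCSF1R and 3153 in BF10. TRDC, the δ constant gene, had 2400, 1228, 2133 and 3192 UMIs in the same order. The IL-10-Fc library was the lowest of the 4 for both chains. As a share of all UMIs, TRGC was 4.25-fold lower in IL-10-Fc than in control IgG (3.92 to 4.62) and TRDC was 2.07-fold lower (1.93 to 2.22). Different recovery of CD8-negative cells on the beads and an effect of treatment cannot be told apart with 1 library a side. The 2 chains differed by unlike factors. There were 1.23 TRGC UMIs for each TRDC UMI in control IgG and 0.60 in IL-10-Fc, with 1.26 in αCSF1R and 0.988 in BF10.

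The γ chains were lower across V genes. Among the 7 TRGV genes with at least 0.5% of TRGC UMIs in either library, all 7 had a share of library UMIs lower in IL-10-Fc by at least 0.32 on the log2 scale, the limit used for calling single genes (100% of those compared), and for 6 of them the interval lay below 1. Trgv2, which rearranges to Trgj2 and whose transcripts are also known from αβ T cells, had 1344 UMIs in control IgG and 276 in IL-10-Fc and was 5.16-fold lower (4.53 to 5.89). Trgv1, used by many spleen γδ T cells, had 400 and 73 UMIs and was 5.80-fold lower (4.51 to 7.56). Trgv4, common among interleukin-17-producing γδ T cells, had 274 and 59 UMIs and was 4.92-fold lower (3.70 to 6.64). Trgv3 had 366 and 108 UMIs and was 3.59-fold lower (2.89 to 4.49). The αCSF1R and BF10 libraries held between 0.407% and 0.496% of their UMIs as Trgv2 and between 0.149% and 0.194% as Trgv1. Control IgG had 0.491% and 0.146% for these genes, and IL-10-Fc had 0.0951% and 0.0252%. Trgv6 had 111 and 26 UMIs and Trgv7 had 39 and 7. γ chains listed under several V genes had 415 and 183 UMIs and were 2.40-fold lower. Trgv5 was too rare for a difference to be seen, with 10 UMIs in control IgG and 5 in IL-10-Fc.

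The δ chains were lower by a smaller and less even factor. All 12 TRDV genes with at least 0.5% of TRDC UMIs were lower per library UMI by at least that limit (100% of those compared), with a median fold of 0.420 and intervals below 1 for 11. Trdv4 was the lowest, with 42 UMIs in control IgG and 4 in IL-10-Fc, an 11.1-fold lower share (4.04 to 42.7). Trav15d-2-dv6d-2, of the V family shared by α and δ chains that marks a known NKT-like γδ subset together with Trgv1, had 252 and 83 UMIs and was 3.22-fold lower (2.50 to 4.17). Trdv5 had 236 and 105 UMIs, Trdv1 had 235 and 120, and Trav13-4-dv7 had 234 and 98. Their shares were 2.38-fold, 2.07-fold and 2.53-fold lower. Trav15-1-dv6-1, with 196 and 99 UMIs, and Trav15d-1-dv6d-1, with 157 and 70, were 2.10-fold and 2.38-fold lower. Trdv2-2 had the most δ UMIs, 596 in control IgG and 398 in IL-10-Fc, and its share was 1.59-fold lower (1.39 to 1.81). Trav14d-3-dv8 had 69 and 55 UMIs, and the interval of its fold, 0.518 to 1.09, included 1.

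**Figure D2:**
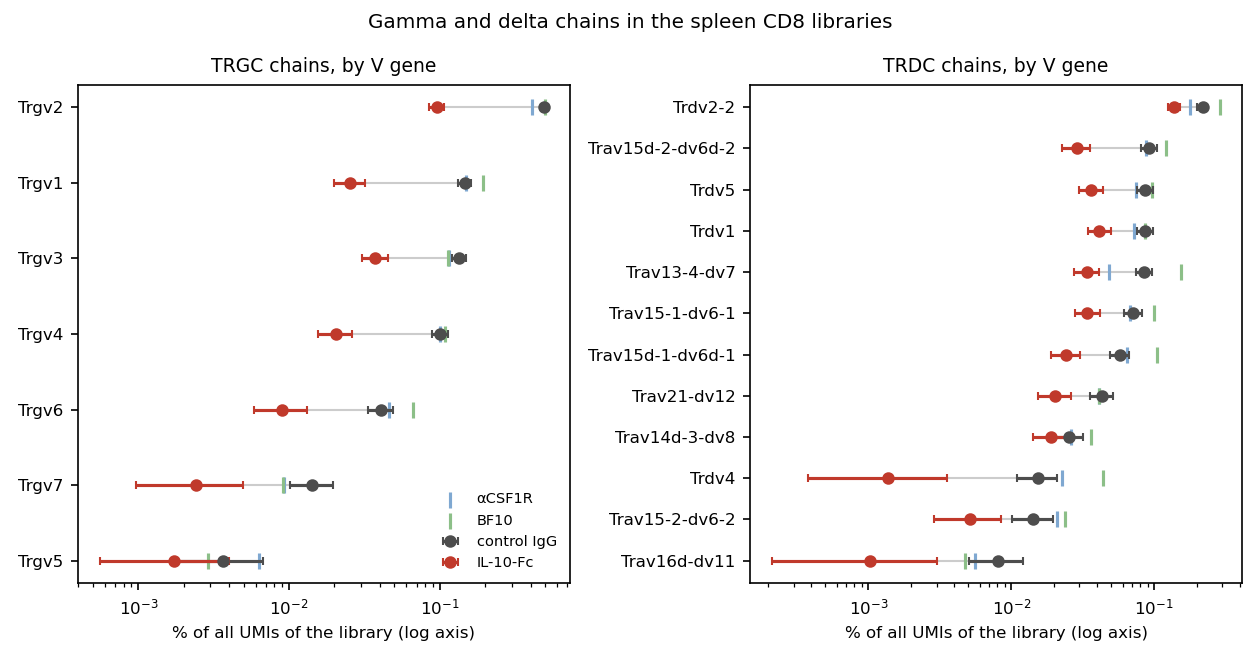
Share of all UMIs of a library, in percent on a log axis, for each TRGV gene (left) and TRDV gene (right) in control IgG (dark points) and IL-10-Fc (red points) with exact 95% binomial intervals, and in αCSF1R and BF10 (tick marks). The red points lie to the left of the dark points for all genes, by 1.33-fold for Trav14d-3-dv8 and 11.1-fold for Trdv4.

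As shares of their own chain, 3 of 7 TRGV genes (42.9%) differed by at least the same limit, 6 of 12 TRDV genes (50%) and 1 of 4 TRGJ genes (25%). The same rule called 2 of 7 TRGV and 5 of 12 TRDV genes between control IgG and αCSF1R, and 3 of 6 and 7 of 12 between control IgG and BF10. The largest shift in TRGC makeup was in chains listed under several V genes, mostly joined to Trgj4, with 14.03% of TRGC UMIs in control IgG and 24.83% in IL-10-Fc. The shares of single TRGV genes depend on how such chains are assigned. Trgv1 made up 13.5% of TRGC UMIs in control IgG and 9.91% in IL-10-Fc, and Trgv2 made up 45.4% and 37.5%. Among chains listed under a single V gene, an alternative chosen after seeing the data, Trgv1 made up 15.7% and 13.2%, a fold of 0.838 (0.644 to 1.08) that is not past the limit. Trgv2 made up 52.8% and 49.8% there, and Trgv3 14.4% and 19.5%, a fold of 1.35 (1.08 to 1.68) that is past it. That left 2 TRGV genes called, Trgv3 and Trgv5, and 6 TRDV genes. Trdv2-2 made up 24.8% of TRDC UMIs in control IgG and 32.4% in IL-10-Fc, the highest of the 4 spleen libraries. Trav14d-3-dv8 made up 2.88% and 4.48%, and Trav15d-2-dv6d-2 10.5% and 6.76%. Trdv4 made up 1.75% and 0.326%. Trgj3 was the J segment past the fold, with 1.99% and 3.66%. The remaining genes past the limit over all chains were Trgv7 and Trgv5 among γ chains, and Trav16d-dv11 and Trav15-2-dv6-2 among δ chains, each with at most 39 UMIs in either library.

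γδ T cells include subsets with fixed joints that are made in the fetal thymus, of which Trgv6 with Trdv4 is 1 pair. The most widely listed sequence of each of 5 genes is shown, so how often these joints recur follows from that choice. The first 4 were listed in all 12 libraries and the last in 10. Capitals mark bases found in neither the V nor the J segment of GRCm38. In the δ chain these include D bases.
Trgv6-Trgj1, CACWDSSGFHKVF: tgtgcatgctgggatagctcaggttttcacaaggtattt
Trdv4-Trdj2: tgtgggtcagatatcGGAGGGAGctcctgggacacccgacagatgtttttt
Trgv4-Trgj1, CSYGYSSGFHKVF: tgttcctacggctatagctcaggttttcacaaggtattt
Trgv2-Trgj2, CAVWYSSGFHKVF: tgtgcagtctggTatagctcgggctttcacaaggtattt
Trgv1-Trgj4, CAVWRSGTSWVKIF: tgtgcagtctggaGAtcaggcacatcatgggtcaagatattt
The Trgv6 joint had 73 UMIs in control IgG, 13 in IL-10-Fc, 87 in αCSF1R and 126 in BF10. The Trdv4 joint had 32, 1, 49 and 86 UMIs in that order. Both were lowest in IL-10-Fc. The Trgv4 joint had 41 UMIs in control IgG and 6 in IL-10-Fc, and the Trgv2 joint had 47 and 18. The Trgv1 joint had 16 and 14 UMIs, and the interval of its fold was 0.373 to 1.81. The most widely listed Trgv5 joint, not shown, was found in all 12 libraries. It had 9 and 5 UMIs, and the interval of its fold was 0.138 to 1.74. Trgv6 lies at chr13:19190356-19190929 on the plus strand, Trgv2 at chr13:19336573-19337167 on the minus strand, and Trdv4 at chr14:54074905-54075515 on the plus strand. In the tdLN, the Trgv6 joint alone made up 33.1% of TRGC UMIs in control IgG and 35.9% in IL-10-Fc, and the Trdv4 joint 27.99% and 30.2% of TRDC UMIs.

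The tdLN libraries of the same 2 treatments are given beside these values. TRGC made up 3.24% of tdLN UMIs in control IgG and 3.19% in IL-10-Fc. TRDC made up 2.03% and 2.31%. Trav11-Traj18 chains made up 0.571% and 0.364% of tdLN TRAC UMIs, a fold of 0.638 (0.565 to 0.720). Whether the treatment effect differs between the organs could not be tested with 1 pooled library each. The sample titles name CD8 for spleen and not for tdLN, and whether the isolation differed was not tested.

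β-chain V usage was close in the 2 libraries. Of 20 TRBV genes with at least 0.5% of TRBC UMIs in either library, 0 differed by the limit of 0.32 on the log2 scale (0%), and folds ran from 0.841 for Trbv20 to 1.12 for Trbv23. The 3 most used genes were Trbv29, Trbv16 and Trbv19. Trbv16 held 10.6% of TRBC UMIs in control IgG, 11.3% in IL-10-Fc, 10.4% in αCSF1R and 11.03% in BF10. Trbv19 held 9.77%, 10.2%, 11.4% and 8.51%. Counting intervals excluded a fold of 1 for 17 of the 20 genes, each of which rests on at least 863 UMIs. The sum of gains in TRBV usage from control IgG to IL-10-Fc was 3.42 percentage points. It was 3.21 points from control IgG to αCSF1R, 6.37 to BF10 and 9.04 between BF10 and αCSF1R.

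β-chain J usage leaned slightly toward the second D-J cluster. Of 12 TRBJ genes, 0 differed by that limit (0%), with folds from 0.869 for Trbj1-6 to 1.07 for Trbj2-3. All 6 Trbj1 genes had a lower share in IL-10-Fc, and together they held 31.2% of TRBC UMIs in control IgG, 28.9% in IL-10-Fc, 29.6% in αCSF1R and 30.6% in BF10. The Trbj1 share in IL-10-Fc was 1.08-fold lower (1.07 to 1.09). Trbj2-7, the most used J gene, held 20.4% and 21.2%, Trbj2-1 14.1% and 14.8%, and Trbj2-5 10.9% and 11.1%.

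In α chains, the single V family and the single J gene past the fold were those of the NKT-type pair. Of 16 Trav families with at least 0.5% of TRAC UMIs, 1 was called (6.25%), Trav11 with 0.788% in control IgG and 0.277% in IL-10-Fc. Of 39 Traj genes, 1 was called (2.56%), Traj18 with 2.18% and 1.58%. The 3 most used families, Trav14, Trav7 and Trav12, held 15.6%, 14.5% and 12.4% in control IgG and 15.1%, 14.1% and 12.8% in IL-10-Fc. Traj22, Traj30 and Traj31 led J usage, with 7.74%, 6.36% and 5.33% in control IgG and 8.12%, 6.38% and 5.30% in IL-10-Fc. Trav21 had the highest fold of the families, 1.20 (1.08 to 1.33). Position along the Traj array, where high numbers lie nearest the V segments, was close in both, with a mean Traj number of 28.5 ± 0.0391 (counting SE) in control IgG and 28.4 ± 0.0379 in IL-10-Fc.

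**Figure D3:**
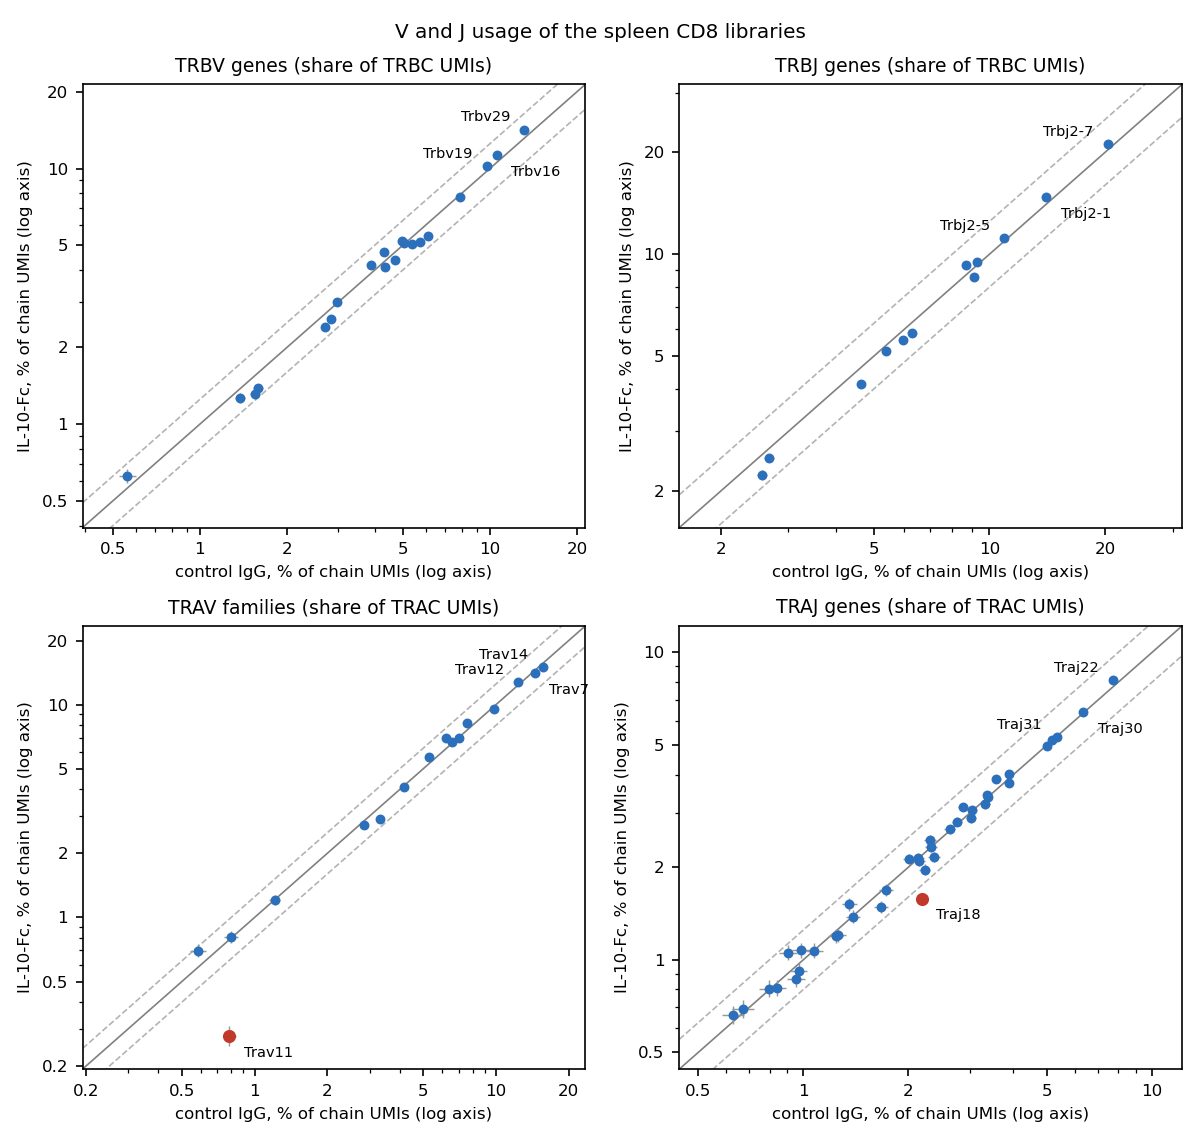
Share of chain UMIs in control IgG (x axis) and IL-10-Fc (y axis), in percent on log axes, for each TRBV gene, TRBJ gene, TRAV family and TRAJ gene with at least 0.5% in either library. Bars are exact 95% binomial intervals, the solid line marks equal shares and the dashed lines a difference of 0.32 on the log2 scale. Trav11 and Traj18, in red, are the 2 points outside the dashed lines.

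V-J pairs gave the same picture with more counting noise. Of 202 TRBC pairs with at least 0.1% of UMIs, 4 differed by at least 1.5-fold (1.98%), all lower in IL-10-Fc. Trbv13-1 with Trbj1-6 had 299 UMIs in control IgG and 190 in IL-10-Fc, Trbv26 with Trbj1-3 had 281 and 199, Trbv31 with Trbj1-3 had 162 and 97, and Trbv5 with Trbj1-2 had 182 and 130. All 4 use a Trbj1 gene, which rests on the same UMIs as the Trbj1 shares above. How many of the 202 compared pairs use a Trbj1 gene is not given here. The same rule called 7 pairs between control IgG and αCSF1R, 7 between control IgG and BF10, and 13 between αCSF1R and BF10.

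Of 329 TRAC pairs, 9 were called (2.74%), of which 5 were higher and 4 lower in IL-10-Fc. Trav11-Traj18 stood apart, with a fold of 0.0897, while the folds of the other 8 lay between 0.551 and 1.86. Trav3 with Traj34 had 193 UMIs in control IgG and 315 in IL-10-Fc, a fold of 1.55 (1.29 to 1.86). Trav21 with Traj56 had 74 and 145 UMIs, a fold of 1.86 (1.40 to 2.49). Trav10 with Traj42 had 69 and 127 UMIs, Trav3 with Traj16 79 and 132, and Trav5 with Traj37 82 and 135. The lower pairs were Trav7 with Traj50 (136 and 79 UMIs), Trav8 with Traj37 (137 and 82) and Trav6 with Traj56 (139 and 85). The same rule called 12 pairs between control IgG and αCSF1R and 32 between αCSF1R and BF10.

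**Figure D4:**
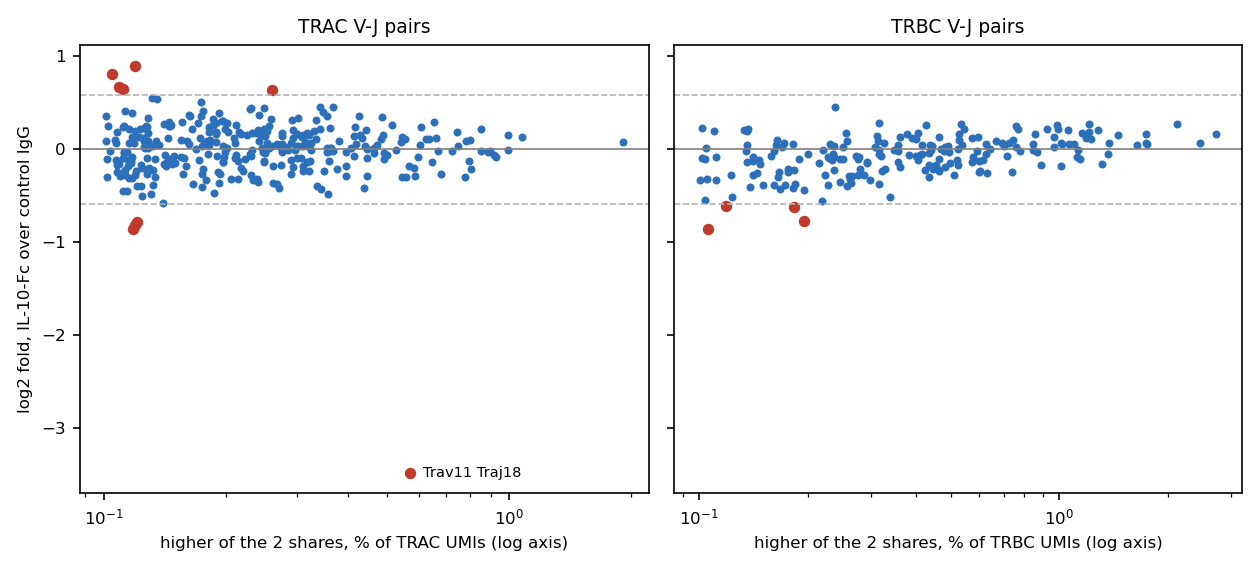
Log2 fold, IL-10-Fc over control IgG, of the share of each V-J pair (y axis) against the higher of its 2 shares in percent on a log axis (x axis), for TRAC (left) and TRBC (right). Dashed lines mark a fold of 1.5, and red points lie outside them. Trav11-Traj18 lies far below all other pairs.

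Mean CDR3 length did not differ beyond counting error. The UMI-weighted mean of TRBC was 13.866 residues (SD over UMIs 1.918) in control IgG and 13.871 (1.957) in IL-10-Fc, a difference of 0.004 with an interval of -0.009 to 0.018. TRAC had means of 13.548 (1.405) and 13.545 (1.403), a difference of -0.002 with an interval of -0.014 to 0.009. A length of 14 residues was the most common in both chains and both libraries. The largest shift at a single TRAC length was at 15 residues, that of the NKT-type CDR3, with 14.7% of TRAC UMIs in control IgG and 14.2% in IL-10-Fc. At some single lengths the interval of the fold excluded 1. It was 0.944 to 0.985 for TRAC at 15 residues and 1.07 to 1.18 for TRBC at 17 residues. The TRGC mean was 14.015 residues in control IgG and 13.955 in IL-10-Fc, and the TRDC mean was 17.995 and 18.049. The intervals of both differences included 0.

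Clonotypes were smaller in IL-10-Fc. At 153435 TRBC UMIs from each library, IL-10-Fc held 1.60 UMIs for each clonotype and control IgG 1.93. At 115039 TRAC UMIs, the values were 1.90 and 2.23. Clonotypes with a single UMI made up 56.2% of TRBC clonotypes in IL-10-Fc, 46.8% in control IgG, 35.0% in αCSF1R and 52.4% in BF10. TRBC clonotypes with at least 10 UMIs numbered 72 in IL-10-Fc and 160 in control IgG, and held 0.555% and 1.41% of UMIs. In TRAC they numbered 398 and 442 and held 5.73% and 6.62% of UMIs. The αCSF1R library, with the highest share of UMIs of at least 7 reads, had the lowest share of single-UMI clonotypes. The part of read depth in these values was not tested.

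**Figure D5:**
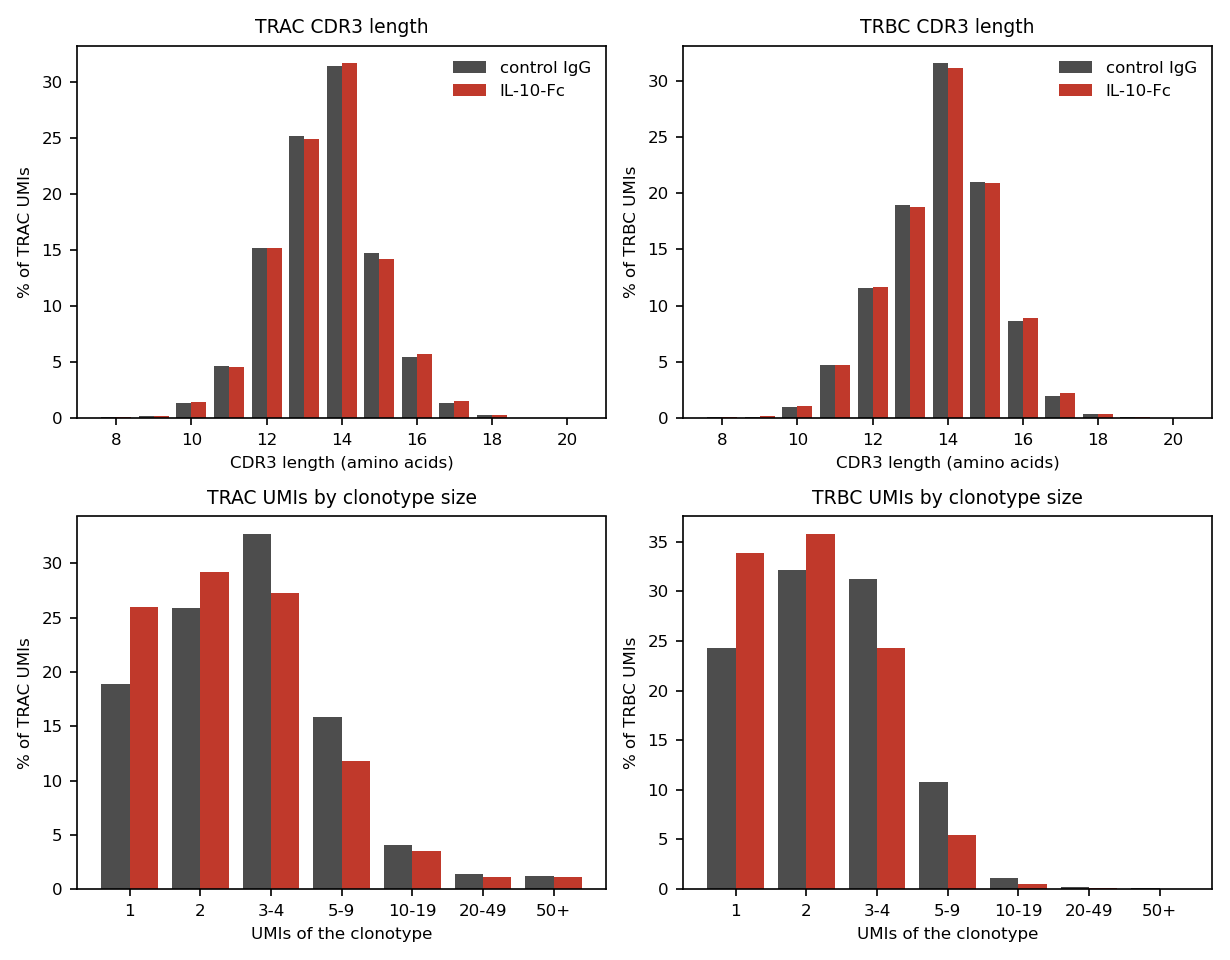
Top, share of UMIs at each CDR3 length in amino acids for TRAC (left) and TRBC (right), in percent. Bottom, share of UMIs by the number of UMIs of their clonotype, in percent. Dark bars are control IgG and red bars IL-10-Fc, 1 pooled library each. Lengths overlay closely, and clonotypes of 1 UMI hold 33.9% of TRBC UMIs in IL-10-Fc and 24.3% in control IgG.

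For γδ chains the direction depended on whether totals were made equal. As listed, there were 4.12 TRGC UMIs for each clonotype in control IgG and 2.80 in IL-10-Fc, and 2.24 and 1.89 TRDC UMIs. At 737 TRGC UMIs from each library the values were 1.91 and 2.80, with 385 and 263 clonotypes. At 1228 TRDC UMIs they were 1.60 and 1.89, with 769 and 650 clonotypes. As listed, the largest TRGC clonotype had 73 UMIs in control IgG and 18 in IL-10-Fc, and TRGC clonotypes with at least 10 UMIs numbered 54 and 6. In TRDC the largest was the Trdv4 joint with 32 UMIs in control IgG, and a Trdv2-2 clonotype with 7 UMIs in IL-10-Fc that was listed in that library alone.

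The leading TRAC clonotypes apart from the NKT-type chain were the same in both libraries. They shared 1 nucleotide sequence, Trav14 joined to Traj22 and read as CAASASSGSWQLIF, which the file lists under several near-identical Trav14 copies. It was found in all 12 libraries, and germline Trav14 and Traj22 covered it with 0 bases left over.
Trav14-Traj22: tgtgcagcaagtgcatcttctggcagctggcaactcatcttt
Over all copies it had 660 UMIs in control IgG and 768 in IL-10-Fc, 0.574% and 0.633% of TRAC UMIs. In control IgG its largest listed copy, with 199 UMIs, came second to the NKT-type clonotype with 212. In IL-10-Fc the largest copy came first with 232 UMIs, and the NKT-type clonotype had 20.

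The leading TRBC clonotypes differed between the libraries. They are shown with bases in neither the V nor the J segment in capitals, which include D bases.
Control IgG, Trbv29-Trbj1-1, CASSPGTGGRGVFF: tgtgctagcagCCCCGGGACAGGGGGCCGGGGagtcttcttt
Control IgG, Trbv29-Trbj2-5: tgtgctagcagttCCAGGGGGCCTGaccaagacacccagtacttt
Control IgG, Trbv15-Trbj2-2, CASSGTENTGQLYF: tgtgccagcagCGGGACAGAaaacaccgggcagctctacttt
IL-10-Fc, Trbv14-Trbj2-4, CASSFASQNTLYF: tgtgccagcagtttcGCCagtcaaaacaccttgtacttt
IL-10-Fc, Trbv13-3-Trbj2-5, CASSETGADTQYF: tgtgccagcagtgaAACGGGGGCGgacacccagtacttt
IL-10-Fc, Trbv29-Trbj2-1: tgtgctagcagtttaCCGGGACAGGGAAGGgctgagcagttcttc
The control IgG clonotypes had 118, 49 and 44 UMIs there and 0 in IL-10-Fc, where a count of 0 was taken as a floor of 3 UMIs. With that floor the first was 42.8-fold lower in IL-10-Fc, which is not a bound. Its exact upper limit in IL-10-Fc was 0.00221% of TRBC UMIs, against a share of 0.0769% in control IgG. The IL-10-Fc clonotypes had 27, 26 and 22 UMIs there and 0 in control IgG. All 6 also had 0 UMIs in the αCSF1R and BF10 spleen libraries, and each was listed in 2 or 3 of 12 libraries. They were picked as the largest of their own library, so their absence elsewhere is not particular to IL-10-Fc against control IgG.

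CDR3 amino acid sequences with at least 20 UMIs in either library numbered 314 for TRBC and 786 for TRAC. A sequence could pass this minimum through only the library where it was high. The folds and clonotype counts of called sequences carry this selection and only describe them. No count by the same rule between other spleen libraries is given. Of the TRBC sequences, 63 differed by at least 3-fold (20.1%), 31 higher and 32 lower in IL-10-Fc. Of the TRAC sequences, 82 differed (10.4%), 37 higher and 45 lower. The median folds over all compared were 1.15 and 1.04. Of the 31 higher TRBC sequences, 25 were listed in at least 10 libraries, and of the 32 lower ones 16 were. Of the 251 TRBC sequences that were compared and not called, 249 were. By the rule a sequence that is not called must be listed in both libraries, and a called one need not be. The counts of libraries therefore carry the selection too, and no difference is read from them. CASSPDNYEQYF had 12 UMIs in 7 clonotypes in control IgG and 42 UMIs in 18 clonotypes in IL-10-Fc. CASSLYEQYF had 6 UMIs in 5 clonotypes and 34 UMIs in 15. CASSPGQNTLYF had 5 UMIs in 4 clonotypes and 30 UMIs in 14.

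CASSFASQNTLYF and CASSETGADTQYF, the leading clonotypes shown above, completed the 5 with the largest gain. Among the 5 with the largest loss, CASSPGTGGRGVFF had 118 and 0 UMIs and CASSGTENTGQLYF had 45 and 4.

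Among TRBC sequences lower in IL-10-Fc, 1 nucleotide sequence held at least 90% of the control IgG UMIs in 11 of 32. Among those higher in IL-10-Fc this was so in 4 of 31. In TRAC it was 6 of 45 and 1 of 37. These counts rest on the same selected sequences. In TRAC, the sequence with the largest gain in share was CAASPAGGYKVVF (Trav14-Traj12), with 1 UMI in control IgG and 57 in IL-10-Fc. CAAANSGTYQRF had 16 and 57 UMIs, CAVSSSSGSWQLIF 4 and 33, and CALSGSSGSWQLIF, mostly Trav12-Traj22, 13 and 42. The sequences named after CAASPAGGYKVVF came from several V genes or families and were listed in 10 to 12 libraries. Of the 704 TRAC sequences that were not called, which by the rule are listed in both spleen libraries, 694 were listed in at least 10. Among the lower TRAC sequences, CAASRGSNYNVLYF (mostly Trav7-Traj21) had 36 and 2 UMIs and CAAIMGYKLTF (mostly Trav14-Traj9) 33 and 5. A sequence of 14 residues, mostly Trav7-Traj39, had 40 and 5 UMIs, and 1 of 13 residues from several V families had 41 and 8.

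Many sequences were shared between the 2 libraries. They had 14371 TRBC CDR3 amino acid sequences in common, 22.6% of those in control IgG and 18.5% of those in IL-10-Fc. For TRAC the number was 12338, which was 37.9% and 32.6%. By UMIs, 35.8% of TRBC and 62.3% of TRAC in control IgG lay in sequences also listed in IL-10-Fc. The share of control IgG UMIs in sequences of the BF10 library was 33.3% and 61.6%, and in those of the αCSF1R library 29.4% and 55.8%. These shares depend on how many sequences each library lists.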

How the data were processed

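The authors isolated CD8+ cells, prepared UMI-tagged libraries from 100 ng of RNA with the QIAseq Immune Repertoire RNA kit and analyzed the reads in the Qiagen portal. The labels' processing notes name mm10, and the germline reference and its version are not given in the sources used here. The deposited tables list clonotypes with counts of UMIs supported by at least 3 to 7 reads, and with a fraction that equals the count over its chain total. Counts with at least 3 reads were used here. V names that span several Trav families stayed in totals only (0.000846% of TRAC UMIs). Shares have exact Clopper-Pearson intervals, and folds have exact conditional binomial intervals (scipy 1.17.1). UMIs of 1 cell are not independent. A V or J gene was called at a fold whose log2 was at least 0.32 with 0.5% or more in either library, a pair at 1.5 and 0.1%, and a CDR3 at 3 with 20 UMIs. Genes named were those called, the 3 most used, and γδ genes above 5% of their chain. Other genes named, such as Trgv6, Trgv5, Trav21 and the Trbj1 cluster, were chosen after their values were seen. Segments were compared with GRCm38 and GENCODE. Scripts were tested on simulated data. Members and lists were chosen with earlier results of these data known.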

Additional observations from a re-analysis of the deposited data

Results flagged for a closer look

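Because each group is 1 pooled library, no group could be searched for a sample far from the others. The results below stand out because spleen and tdLN moved in opposite directions from control IgG to IL-10-Fc, with counting intervals apart from 1 in both organs. The TRDC share of all UMIs had a fold of 0.483 in spleen and 1.13 in tdLN. The joint share of TRGC and TRDC had a fold of 0.346 in spleen and 1.04 in tdLN. The difference between the organs was not tested, since it would need replicate libraries. The tdLN titles also do not name CD8, as the spleen titles do.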

How the results depend on the processing

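Of 81 alternative values of the main results, 53 kept to the counting interval or to within 1.5 times the count. UMIs per clonotype were judged instead by a limit on the change of their ratio. Another 56 values covered named V and J genes, of which 18 moved. With each clonotype counted once, Trav11 had a fold of 0.868 (0.703 to 1.07) and Traj18 one of 0.9345 (0.854 to 1.02). No called fold turned its direction. The differences in mean CDR3 length, whose intervals include 0, changed sign. They were 0.004 residues for TRBC and -0.002 for TRAC, and -0.001 for TRBC with at least 7 reads. With UMIs of at least 7 reads, 21 TRAC pairs were called in place of 9, the TRAC length difference was 0.014, the ratio of UMIs per clonotype at equal UMIs was 0.905 for TRBC and 0.929 for TRAC in place of 0.831 and 0.854, and 10 CDR3 sequences differed in place of 145. With each clonotype counted once, 0 TRAV families, 0 TRAJ genes, 1 TRBC pair and 5 TRAC pairs were called, the TRBC length difference was 0.018, and the folds were 0.309 for the NKT-type pair, 0.415 for TRGC and TRDC together and 0.298 for TRGC. With clonotypes of at least 2 UMIs, 2 TRAV families, 2 TRAJ genes, 9 TRBC pairs and 20 TRAC pairs were called, and the TRBC length difference was -0.013. With the share floor doubled, 0 TRAV families, 0 TRBC pairs and 2 TRAC pairs were called. At a fold of 1.5, or 2 for pairs, 0 TRAJ genes, 0 TRBC pairs and 1 TRAC pair were called. With a minimum of 50 UMIs 5 CDR3 sequences differed, and at a fold of 5 there were 72. Without Trav11-Traj18 clonotypes, an alternative chosen after seeing the data, 0 TRAV families and 0 TRAJ genes were called. The causes were not tested. No paired analysis was possible because each group is 1 library with no replicate number.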

Other observations

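Mice carry near-identical copies of Trav11, and the clonotype lists give Trav11n alone for some chains of the leading NKT-type CDR3. Such listings made up 102 of 577 UMIs of this CDR3 in control IgG (17.7%, exact interval 14.7% to 21.0%), 76 of 550 in αCSF1R (13.8%) and 76 of 404 in BF10 (18.8%). In IL-10-Fc they made up 0 of 44 (exact upper limit 8.04%). In the tdLN they made up 67 of 457 UMIs in control IgG (14.7%) and 66 of 429 in IL-10-Fc (15.4%). Assignment among near-identical copies is uncertain, and the pattern was noticed in these data.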
